A study of Pseudotaxus chienii and Amentotaxus argotaenia and Torreya grandis with 9 samples.

Results

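Steady features are the transcripts whose level was nearly the same in all libraries of 3 tree species of the yew family. A Trinity assembly of transcripts gave 88609 gene-level features, and 1861 of them reached 20 TPM in every one of 9 RNA-seq libraries. In 73 of these the highest library was less than 1.5 times the lowest, and these 73 are the steady features. They make up 3.92% of the 1861 and 0.0824% of all features. They were selected on the 9 TPM values themselves, so their levels and their small spread are a description and no test is made of them.

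The libraries were made from twigs, wood and needles together, of plants aged 3 years, kept at 25 °C with 12 h of light and 12 h of dark. Pseudotaxus chienii (P. chienii) carries the label of a taxol-producing tree, taxol being a diterpenoid drug against cancer. The label of Amentotaxus argotaenia (A. argotaenia) and Torreya grandis (T. grandis) is non-taxol producing. There were 3 libraries for each species, and the labels do not say whether these came from separate trees, so the spread within a species may be technical. The unit was read from the values, as no header names it: every library sums to between 999890 and 999947 and low values share no common step. CPM of estimated counts could look alike, so levels of different features compare per length only if the unit is TPM, while ratios between libraries of 1 feature do not need this. TPM keeps no read count, so the depth is unknown and no counting interval is given. All species were quantified on the same list of features. In each species 1 library correlated least with the other libraries of that species, P. chienii replicate 1 at a mean Pearson's r of 0.906 across features on the log2(TPM + 1) scale, A. argotaenia replicate 2 at 0.886 and T. grandis replicate 3 at 0.899. The other 6 libraries had a mean r of 0.913 to 0.933.

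Transcripts of steady level serve as reference transcripts in quantitative PCR, where the level of a gene of interest is divided by that of the reference to remove differences in RNA input. Plant studies commonly take genes of the cytoskeleton, of translation, of glycolysis or of protein turnover for this purpose, such as actin, tubulin, elongation factor, glyceraldehyde-3-phosphate dehydrogenase and ubiquitin genes. A reference used across species must also be recognised as the same transcript in each. The files do not pair the feature IDs with gene names or sequences, so which of the 73 belong to these families was not analysed here and no role is given to any ID.

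The steady features were mostly of moderate level. Their mean over 9 libraries had a median of 42.7 TPM, against 74.9 TPM in all 1861 features, and ran from 23.7 to 373 TPM, while the 1861 reached 11059 TPM. Of the 73, 43 had a mean of 20 to under 50 TPM, 20 a mean of 50 to under 100 TPM, 8 a mean of 100 to under 200 TPM and 2 a mean of 200 TPM or more. The share of steady features thus differed by level class. It was 8.27% of 520 features in the lowest class, 2.93% of 682 in the next, 2.13% of 375 in the class from 100 TPM and 0.704% of 284 in the highest. A feature near the 20 TPM minimum has little room to fall and still be counted, which holds for the lowest class by construction. The median coefficient of variation (CV, the SD over the mean of 9 libraries) of the steady features was 10.8%, 11.3%, 11.1% and 9.39% from the lowest to the highest class. In all features of the same classes it was 27.2%, 38.7%, 43.8% and 46.1%. The plot of level and range shows both sets.

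**Figure D1:**
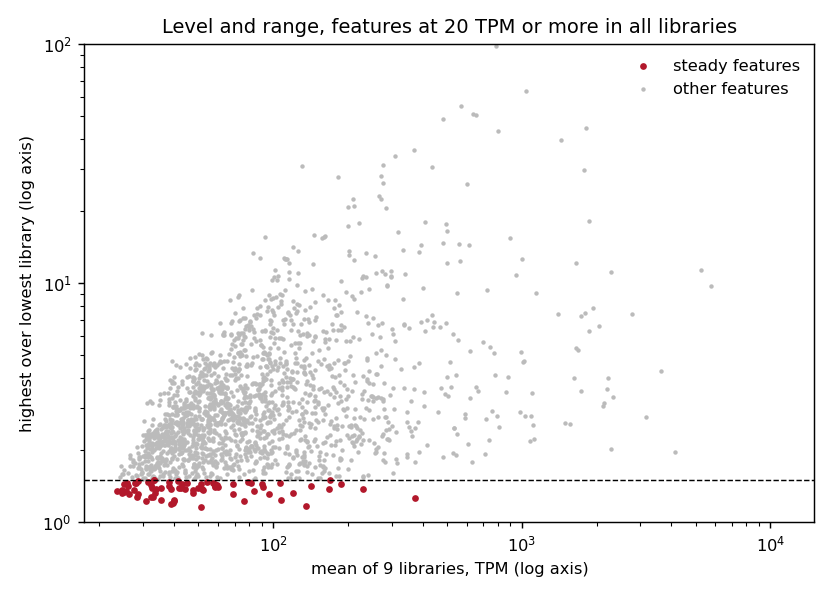
Each point is a feature that reached 20 TPM in every library, with its mean over 9 libraries in TPM on the x axis and the ratio of its highest to its lowest library on the y axis, both logarithmic. The 73 steady features (red) lie under the dashed limit of 1.5, and their means end at 373 TPM; 4 other features (grey) with a ratio above 100 are not drawn.

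In the lowest level class, from 20 to under 50 TPM, TRINITY_DN43613_c1_g1 had the smallest ratio of highest to lowest library, 1.19, and the lowest CV of all 73, 5.005%. It stood at 35.99, 39.7 and 37.9 TPM for P. chienii, 39.3, 38.5 and 37.98 TPM for A. argotaenia, and 42.7, 37.9 and 40.8 TPM for T. grandis. TRINITY_DN49774_c0_g1 was at 39.2, 43.1 and 42.7 TPM for P. chienii, 37.7, 37.6 and 39.7 TPM for A. argotaenia, and 38.3, 36.2 and 43.3 TPM for T. grandis, with a ratio of 1.197. Libraries of all species overlapped at both features. TRINITY_DN47001_c0_g1 was at 29.7, 30.6 and 29.3 TPM for P. chienii, 29.5, 35.9 and 32.9 TPM for A. argotaenia, and 29.8, 31.2 and 29.3 TPM for T. grandis, and its ratio of 1.23 came from A. argotaenia replicate 2. Apart from A. argotaenia replicates 2 and 3, its libraries lay between 29.25 and 31.2 TPM.

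TRINITY_DN50099_c0_g1, in the class from 50 TPM, had the smallest ratio of all 1861 features, 1.16, with a CV of 5.52%. Its level was 48.9, 52.4 and 52.9 TPM for P. chienii, 48.2, 48.6 and 55.8 TPM for A. argotaenia, and 48.8, 53.5 and 53.9 TPM for T. grandis. The mean of the highest species was 1.02 times that of the lowest; the 3 species ranged over the same levels. TRINITY_DN49362_c0_g1 was at 76.8, 81.3 and 83.97 TPM for P. chienii, 68.6, 72.4 and 79.98 TPM for A. argotaenia, and 70.6, 72.2 and 83.3 TPM for T. grandis, a ratio of 1.22. TRINITY_DN44347_c0_g1 was at 98.8, 91.7 and 95.8 TPM for P. chienii, 82.6, 94.7 and 89.2 TPM for A. argotaenia, and 102, 101 and 108 TPM for T. grandis, a ratio of 1.31. All libraries of T. grandis were above all others at the last of these.

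In the class from 100 TPM, TRINITY_DN44978_c0_g1 was at 133, 126 and 135 TPM for P. chienii, 147, 129 and 144 TPM for A. argotaenia, and 134, 134 and 143 TPM for T. grandis, with a ratio of 1.17 and a CV of 5.19%. The species overlapped at this feature. TRINITY_DN47773_c0_g1 was at 98.2, 108 and 112 TPM for P. chienii, 103, 114 and 102 TPM for A. argotaenia, and 96.2, 115 and 119 TPM for T. grandis, a ratio of 1.24. TRINITY_DN47663_c0_g1 was at 120.04, 117 and 133 TPM for P. chienii, 129, 102 and 116 TPM for A. argotaenia, and 105, 134 and 125 TPM for T. grandis, a ratio of 1.32. Here too libraries of every species overlapped. The class held 3 further steady features in addition to TRINITY_DN43455_c0_g1 and TRINITY_DN41197_c0_g1. Named after their values were seen, to complete the class, they were TRINITY_DN44430_c0_g1 with a mean of 107 TPM and a ratio of 1.46, TRINITY_DN51225_c0_g1 with 141 TPM and 1.42, and TRINITY_DN44831_c0_g1 with 168 TPM and 1.37.

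The most abundant steady feature was TRINITY_DN43052_c0_g2, at 375, 352 and 365 TPM for P. chienii, 356, 423 and 405 TPM for A. argotaenia, and 395, 334 and 347 TPM for T. grandis, with a mean of 373 TPM and a ratio of 1.26. Its species overlapped. TRINITY_DN39490_c0_g6 followed, at 224, 254 and 231 TPM for P. chienii, 190.21, 212 and 202 TPM for A. argotaenia, and 262, 241 and 255 TPM for T. grandis, with all libraries of A. argotaenia below all others and a ratio of 1.38. TRINITY_DN43455_c0_g1 was next, at 214, 216 and 226 TPM for P. chienii, 158, 159 and 185 TPM for A. argotaenia, and 178, 191 and 157 TPM for T. grandis, a ratio of 1.44. All libraries of P. chienii were above all others at that feature. Of these, only TRINITY_DN43052_c0_g2 had a species mean ratio under 1.1.

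The limits of the choice cut through a continuous range. Just inside the ratio limit, TRINITY_DN41197_c0_g1 was at 183, 169.66 and 168 TPM for P. chienii, 195, 164 and 204 TPM for A. argotaenia, and 154, 149.84 and 136 TPM for T. grandis, a ratio of 1.499, with all libraries of T. grandis below the others. TRINITY_DN39771_c0_g1 was at 37.2, 31.1 and 28.1 TPM for P. chienii, 34.9, 26.9 and 40.3 TPM for A. argotaenia, and 36.3, 33.7 and 30.3 TPM for T. grandis, a ratio of 1.497, and all its species overlapped. Just outside, TRINITY_DN51852_c0_g1 was at 87.1, 86.96 and 90.03 TPM for P. chienii, 67.97, 80.4 and 81.1 TPM for A. argotaenia, and 76.6, 73.1 and 102 TPM for T. grandis, a ratio of 1.502. TRINITY_DN50525_c0_g1 was at 127, 126 and 118 TPM for P. chienii, 106, 124 and 135 TPM for A. argotaenia, and 89.7, 108 and 105 TPM for T. grandis, a ratio of 1.51. T. grandis replicate 3 was the highest library of the first and A. argotaenia replicate 3 of the second. At the limit on the level, TRINITY_DN53513_c4_g2 was at 27.6, 23.9 and 25.02 TPM for P. chienii, 20.7, 21.04 and 23.3 TPM for A. argotaenia, and 24.2, 20.4 and 26.9 TPM for T. grandis, with its lowest value in T. grandis replicate 2. TRINITY_DN46062_c0_g1 was at 26.6, 27.03 and 27.1 TPM for P. chienii, 21.2, 21.1 and 26.9 TPM for A. argotaenia, and 28.8, 22.6 and 21.1 TPM for T. grandis, with its lowest value in A. argotaenia replicate 2. Just below it, TRINITY_DN50029_c2_g2 had a lowest library of 19.9 TPM and a ratio of 1.49, and TRINITY_DN44093_c0_g2 a lowest library of 19.8 TPM and a ratio of 1.38. The 49 steady features that the rule for naming left out had means from 24.6 to 168 TPM, ratios from 1.23 to 1.48 with a median of 1.40, and CVs from 7.34% to 15.5%.

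The whole set was laid out library by library. Of the 657 values, 79.5% were within 0.2 of the mean of their feature on the log2 scale, and the farthest lay 0.37 above and 0.37 below. The geometric mean of the 73 was 50.2, 49.1 and 50.4 TPM for P. chienii, 48.1, 49.4 and 52.6 TPM for A. argotaenia, and 48.1, 49.8 and 50.01 TPM for T. grandis. The highest of these libraries was 1.09 times the lowest, and no species stood apart. A. argotaenia replicate 3 was the highest library of 14 steady features and the lowest of none, whereas A. argotaenia replicate 1 was the lowest library of 15. Summed, the steady features held 4562 ± 62.1 TPM for P. chienii (SD, n = 3), 4579 ± 187 TPM for A. argotaenia and 4532 ± 72.1 TPM for T. grandis. These sums are 0.456% of the total in P. chienii, 0.458% in the A. argotaenia libraries and 0.453% in T. grandis. The even sums follow from the choice.

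**Figure D2:**
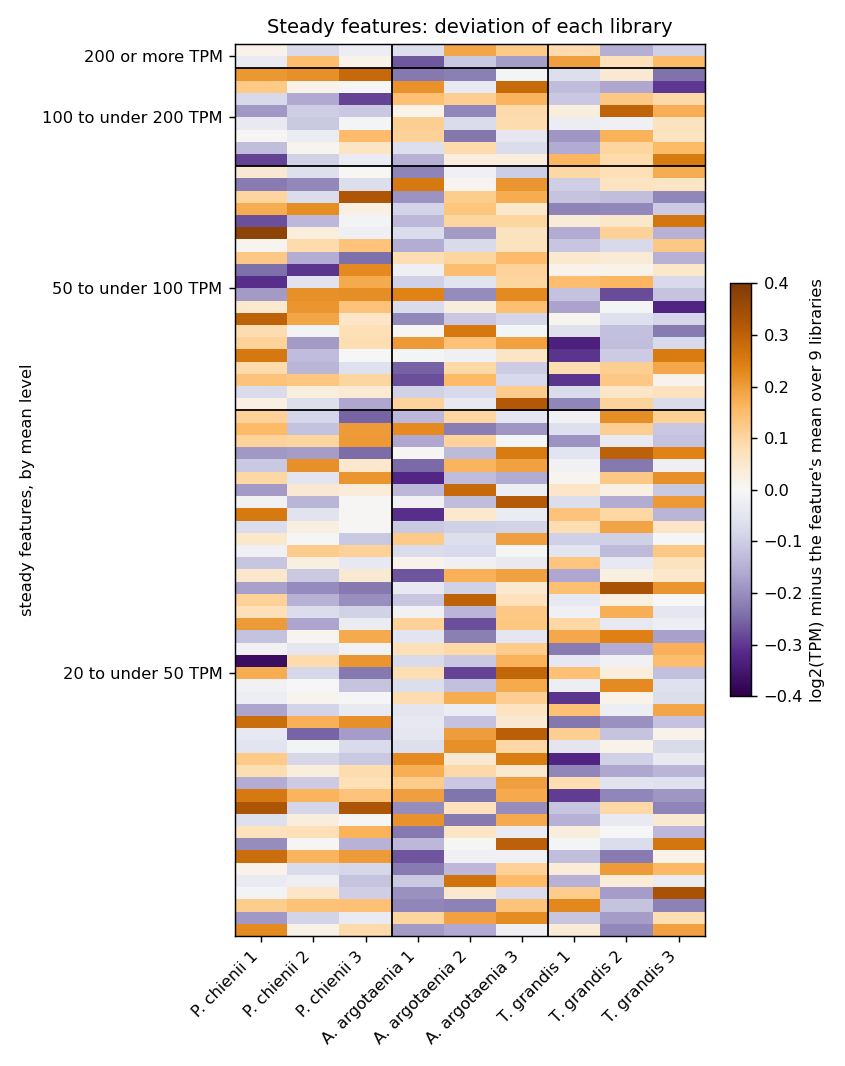
Rows are the 73 steady features, ordered by mean level with black lines between the level classes, and columns are the 9 libraries. Colour is log2(TPM) minus the mean of the feature over 9 libraries, from -0.4 (purple) to 0.4 (orange); the column of A. argotaenia replicate 3 is mostly orange, and no species forms a block of 1 colour.

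Spread was then divided into a part within species and a part between species. The SD of log2 TPM over the 3 libraries of a species, averaged over species, had a median of 0.114 in the steady features, against 0.179 in all 1861. The SD of the species means had a median of 0.104 in the steady features, against 0.569 in all 1861. The choice bounds both, and the gap was wider between species than within. The SD of the species means was the larger of the pair in 29 of the 73 steady features, or 39.7%, and in 90.1% of the 1861. A mean of 3 libraries varies less than a single library, so without a species difference the SD of species means should be smaller. Equal SDs therefore do not mean that the species are alike. As a share of the sum of squares over 9 libraries, differences between species had a median of 38.2% in the steady features and 88.8% in all 1861. Left without the library of each species that correlated least with the others (P. chienii replicate 1, A. argotaenia replicate 2 and T. grandis replicate 3), the same 73 had a median share of 64.7%, with a within-species SD of 0.0853 and an SD of species means of 0.127. Removing the least alike library lowers the spread within species by construction, and with fewer libraries per species the share between species is higher even where species do not differ.

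Within the species, the ratio of highest to lowest library of the steady features had a median of 1.12 for P. chienii, 1.19 for A. argotaenia and 1.16 for T. grandis. In all 1861 features the medians were 1.23, 1.31 and 1.21 in the same species. The median SD of log2 TPM of the steady features was 0.0905 for P. chienii, 0.132 for A. argotaenia and 0.117 for T. grandis. By the ratio, A. argotaenia was the most variable species in both sets. Neighbouring values in this order were not tested.

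**Figure D3:**
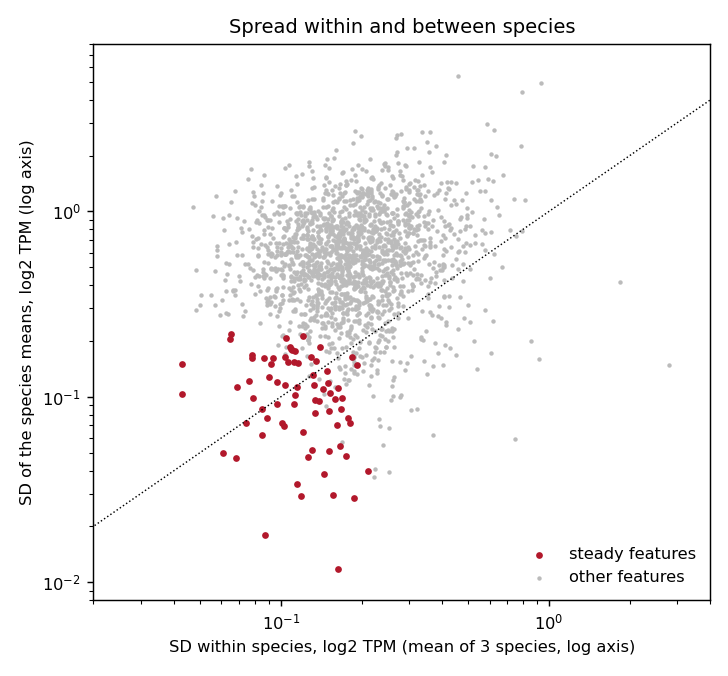
The x axis gives the SD of log2 TPM within species (mean of 3 species) and the y axis the SD of the 3 species means, both logarithmic, for the 1861 features that reached 20 TPM in every library. The dotted line marks equal SDs; 29 of 73 steady features (red) lie above it, as do 90.1% of all 1861 features.

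Species still differed slightly in part of the set. The highest species mean was under 1.1 times the lowest in 22 of the 73 and under 1.2 times in 49, and it reached at most 1.35 times. Of all 1861 features, 31 were under 1.1 times and 88 under 1.2 times. The choice itself keeps this ratio under 1.5 in the 73. TRINITY_DN37262_c0_g2 had the largest share of variation between species, 91.8%, at 30.2, 29.2 and 30.2 TPM for P. chienii, 32.1, 30.4 and 29.5 TPM for A. argotaenia, and 24.6, 25.5 and 25.8 TPM for T. grandis. T. grandis was below both other species in every library there. TRINITY_DN48012_c0_g1 had 90.6%, at 38.7, 35.96 and 37.2 TPM for P. chienii, 31.1, 29.4 and 32.97 TPM for A. argotaenia, and 27.2, 27.9 and 29.4 TPM for T. grandis, with P. chienii above both others. TRINITY_DN37586_c0_g1 had 90.4%, at 33.6, 32.9 and 32.3 TPM for P. chienii, 36.9, 35.6 and 39.2 TPM for A. argotaenia, and 41.9, 47.7 and 43.8 TPM for T. grandis, so that P. chienii was below A. argotaenia and A. argotaenia below T. grandis without overlap. In all, 19 of the 73, or 26.0%, had a species whose 3 libraries were all above or all below the other 6, against 82.1% of the 1861.

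At the other end, TRINITY_DN48876_c0_g1 had 0.446% of its variation between species, at 40.4, 31.2 and 34.4 TPM for P. chienii, 37.8, 28.97 and 38.4 TPM for A. argotaenia, and 37.5, 34.1 and 34.5 TPM for T. grandis. The species means were within 1.01 times of each other, and every species ranged over several TPM. TRINITY_DN45448_c0_g1 had 1.89%, at 25.5, 35.1 and 38.2 TPM for P. chienii, 31.3, 30.5 and 37.01 TPM for A. argotaenia, and 32.1, 32.7 and 36.6 TPM for T. grandis, with P. chienii replicate 1 the lowest of all. TRINITY_DN40745_c1_g1 had 2.80%, at 40.1, 35.9 and 39.95 TPM for P. chienii, 32.1, 43.6 and 44.2 TPM for A. argotaenia, and 34.5, 39.4 and 40.1 TPM for T. grandis. These 3 vary among libraries of the same species. The highest species mean belonged to P. chienii in 22 steady features, to A. argotaenia in 27 and to T. grandis in 24, and the lowest to P. chienii in 29 and to each other species in 22. As shares, the highest mean belonged to P. chienii in 30.1% of the steady features and 35.2% of the 1861, to A. argotaenia in 36.99% and 29.6%, and to T. grandis in 32.9% and 35.2%. The lowest belonged to P. chienii in 39.7% and 33.05%, to A. argotaenia in 30.1% and 35.7%, and to T. grandis in 30.1% and 31.3%. No test was made of these shares.

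Steadiness was also counted within each species, over 3 libraries in place of 9. Adding libraries can only widen the ratio, so the shares within a species are higher in part by construction. Among features that reached 20 TPM in each library of a species, the highest library was under 1.5 times the lowest in 75.9% of 6344 for P. chienii, 65.2% of 5635 for A. argotaenia and 80.3% of 6297 for T. grandis. Of the 1861 features, 1106 met that limit in each species taken alone. Only the 73 steady features, 6.60% of those 1106, met it across species. Over all 9 libraries the 1106 had a median ratio of 2.43 and 70.2% of them a ratio of 2 or more.

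To read the levels in libraries that the choice had not used, the rule was applied to the other libraries first. With 1 library held out, 81 to 125 features were chosen. In the held-out library the level stayed within 2-fold of the mean of the other 8 in 96.8% to 100% of them, against 80.3% to 86.5% of all features that reached 20 TPM in those 8. The median distance was 0.115 to 0.249 on the log2 scale, against 0.432 to 0.489 in all such features. A. argotaenia replicate 2 was the library with the largest distance. The share of chosen features that still met the rule with it was 58.4%, against 72.3% to 90.1% with the other libraries. Those that still met the rule were the same 73 features for every library held out, so this share only restates the number chosen. Without A. argotaenia replicate 2, 125 features met the rule, and 191 did without the 3 libraries that correlated least with their species. A smaller number of libraries by itself lets more features pass.

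A whole species was then held out, which is the case of a reference transcript carried over to a new species. Of 535 features steady in A. argotaenia and T. grandis, 13.6% were steady with P. chienii added, and the P. chienii mean was within 2-fold of the mean of the other libraries in 53.6%. Of all 3209 features at 20 TPM or more in the other 6 libraries, 44.6% were within 2-fold. The P. chienii mean was 2-fold or more higher in 47 of the 535, or 8.79% (7.48% of the 3209), and 2-fold or more lower in 201, or 37.6% (47.96% of the 3209). With A. argotaenia held out, 521 features were chosen, 14.01% were steady over all 9 libraries and 72.7% were within 2-fold, against 64.3% of the 2492 features at 20 TPM or more in the other species. With T. grandis held out, 395 were chosen, 18.5% were steady and 74.7% were within 2-fold, against 64.5% of 2323. The features steady over all 9 libraries were the same 73 for each species held out, so their shares only restate the number chosen. Of the 535, 75 features were under 1 TPM in all 3 libraries of P. chienii, against 3 of 521 in A. argotaenia and 3 of 395 in T. grandis. These are 14.02%, 0.576% and 0.759% of the features chosen, where 12.4%, 1.44% and 1.46% of all features at 20 TPM or more in the other species were as low. For 48 of those 75 the sum over the Trinity component, the cluster of features that share an ID up to the gene number, was within 2-fold in P. chienii. Of the 75, 6 were the single feature of their component. Neither count was made for the 399 of all 3209 features that were as low, so no background stands beside them. The counts for the 3 species held out rest on overlapping choices and were not tested against each other.

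**Figure D4:**
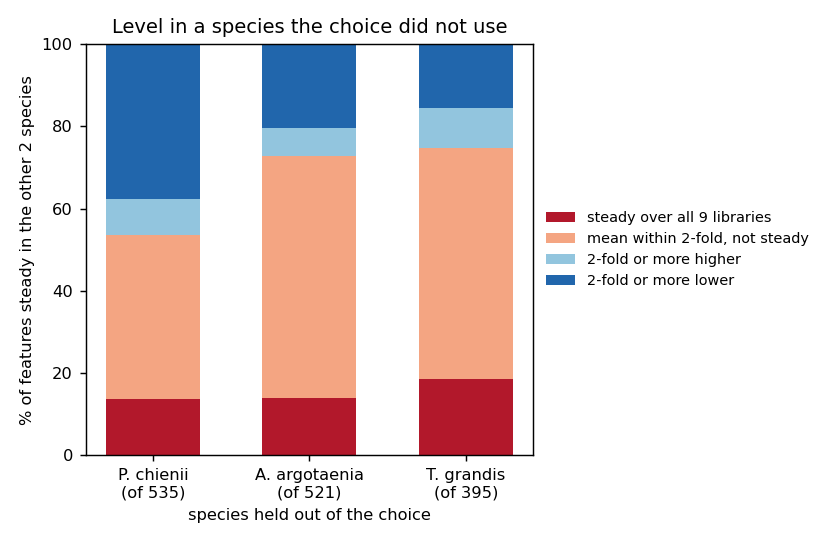
For each species held out, bars divide the features steady in the 6 libraries of the other species, in % of the number under the axis, by their level in the species held out. Steady over all 9 libraries were 13.6%, 14.01% and 18.5%, the same 73 features each time. Features 2-fold or more lower (dark blue) were 201 of 535 with P. chienii held out. They were 107 of 521 with A. argotaenia and 61 of 395 with T. grandis held out. As shares these are 37.6%, 20.5% and 15.4%. Of all features at 20 TPM or more in the other species, 47.96%, 29.1% and 26.3% were as much lower.

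As reference transcripts are often used in pairs or small groups, their stability against each other was measured as in the geNorm method. M is the mean SD, over 9 libraries, of the log2 ratio of a feature to each other feature of the set. The choice used the same 9 values and bounds M among the 73, so M and the pairs and averages below are a description. Among the 73, M had a median of 0.213 and ran from 0.161 to 0.263. The lowest values belonged to TRINITY_DN50099_c0_g1 with 0.161, TRINITY_DN44978_c0_g1 with 0.167 and TRINITY_DN49362_c0_g1 with 0.175, all described above. Computed against all 1861 features, M had a median of 0.638 in the steady features and 0.805 in the whole set, a gap that the choice favours. In that wider set 91 features that are not steady had an M below the highest of the steady features, and 2 had one below their median. The smallest SD among the 2628 pairs of steady features was 0.0494, for TRINITY_DN49362_c0_g1 over TRINITY_DN49774_c0_g1, whose ratio lay between 1.82 and 2.01 in the 9 libraries. This pair was picked out after its values were seen. The geometric mean of the 3 features of lowest ratio varied by 1.104 times between libraries, that of 10 by 1.07 times, and that of all 73 by 1.09 times.

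The position of the steady features in the assembly was not used to choose them. They belonged to 72 components, and TRINITY_DN44347_c0_g1 and TRINITY_DN44347_c0_g2 shared a component and are not independent. The second was at 40.9, 34.2 and 33.01 TPM for P. chienii, 35.00, 46.6 and 39.8 TPM for A. argotaenia, and 36.9, 38.6 and 37.9 TPM for T. grandis. A feature was the single member of its component in 27 cases, or 37.0%, against 28.8% of the 1861 and 26.8% of all features. The gene number 1 was carried by 78.1% of the steady features, 76.9% of the 1861 and 48.4% of all features. The value of the steady features lay closer to that of the 1861 than to that of all features, with no test made. Steady features of components with several features held a median of 92.4% of the TPM of their component, against 92.3% in the 1861.

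The other features of these components bear on suitability, since a primer pair or probe may detect them too. They numbered 113. In 76 cases 1 species alone had them at 1 TPM or above in each of its libraries (24 for P. chienii, 31 for A. argotaenia and 21 for T. grandis), and in 6 cases all species did. These are 67.3% and 5.31% of the partners, where by the same limit 55.8% of all features were found in 1 species alone and 12.8% in all. As sums over the component, 51 of the 73 steady features kept a ratio under 1.5, a count that includes the 27 single ones. Of the 1861 features, 77 did. The sum contains the steady feature itself, which was chosen for a small ratio, so a small component ratio follows in part from the choice. In 10 of the 46 with several features, or 21.7%, the component ratio was 2 or more, against 79.02% of the 1325 such features among the 1861. Of 3016 components that reached 20 TPM in every library, 3.58% had such a ratio under 1.5, which is 108 components, and 50 of them, or 46.3%, held a steady feature. The other 58 all consisted of several features of which none was steady alone. This follows from the rule, as a component of 1 feature with such a ratio is itself a steady feature.

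The steady features with the most abundant partners in their component show what a component holds. TRINITY_DN47863_c1_g1 was at 102, 80.3 and 77.5 TPM for P. chienii, 74.9, 69.2 and 82.3 TPM for A. argotaenia, and 70.5, 84.6 and 70.9 TPM for T. grandis. Its partners summed to 344 ± 90.9 TPM for P. chienii (SD, n = 3), 8.07 ± 4.29 TPM for A. argotaenia and 0.26 ± 0.157 TPM for T. grandis. The steady feature held 20.6% of its component for P. chienii, 90.6% for A. argotaenia and 99.7% for T. grandis, and the component ratio was 7.37. TRINITY_DN47663_c0_g1, given above, held 32.5%, 38.02% and 24.1% of its component in the same species. TRINITY_DN46744_c0_g2 was at 38.1, 40.7 and 40.1 TPM for P. chienii, 37.2, 37.5 and 37.6 TPM for A. argotaenia, and 42.4, 45.6 and 41.6 TPM for T. grandis, a ratio of 1.23, in a component with a ratio of 5.15. It held 71.6% of this component for P. chienii, 15.3% for A. argotaenia and 31.3% for T. grandis. Among features named for the smallest ratio of their class, TRINITY_DN44978_c0_g1 held 62.5%, 82.2% and 67.4% of its component in the same species. Its component ratio was 1.40. TRINITY_DN47001_c0_g1 held 32.6%, 65.5% and 65.2%, with a component ratio of 3.21. TRINITY_DN50099_c0_g1 and TRINITY_DN49362_c0_g1 held 96.8% and 98.1% of theirs on average.

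Single partners, named after their values were seen, are given by their levels (mean ± SD, n = 3) and without a test, because most passed the filter on low values through the species where they are high. TRINITY_DN47863_c1_g2 was at 341 ± 90.5 TPM for P. chienii, 0.247 ± 0.222 TPM for A. argotaenia and 0.26 ± 0.157 TPM for T. grandis. It was high in P. chienii alone. TRINITY_DN47663_c0_g2 was at 257 ± 49.6 TPM for P. chienii, 0.363 ± 0.145 TPM for A. argotaenia and 0.48 ± 0.365 TPM for T. grandis. TRINITY_DN47663_c0_g3, of the same component, was at 2.44 ± 1.81 TPM for P. chienii, 188 ± 17.998 TPM for A. argotaenia and 385 ± 76.7 TPM for T. grandis. The steady feature of that component thus lies beside partners that hold most of the component in different species. TRINITY_DN46744_c0_g3 was at 0.897 ± 0.854 TPM for P. chienii, 134 ± 12.9 TPM for A. argotaenia and 0.23 ± 0.398 TPM for T. grandis, high in A. argotaenia alone.

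**Figure D5:**
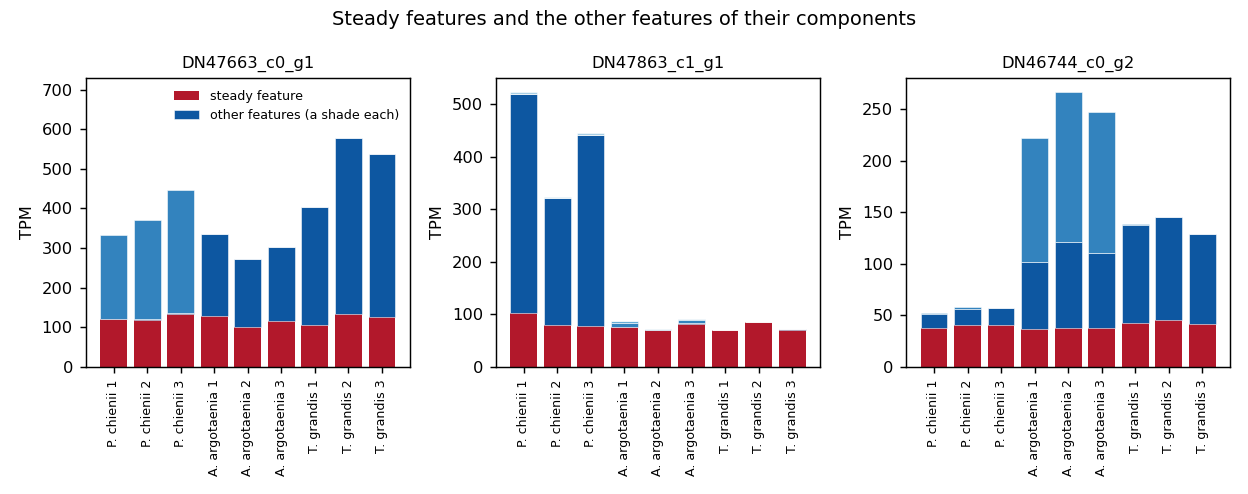
Stacked bars give TPM in each of the 9 libraries for the steady feature (red) and the other features of its component (blue, a shade for each) in the 3 components with the highest partner sums. The red parts stay between 102 and 134 TPM in the left panel, 69.2 and 102 TPM in the middle and 37.2 and 45.6 TPM on the right, while the whole bars differ with component ratios of 2.12, 7.37 and 5.15.

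Of the 113 partners, 95 reached 1 TPM in at least 3 libraries and were tested together with all other features. Partners that pass this filter through 1 species alone had to differ, so the counts are given only beside the same rule over all features. Between P. chienii and A. argotaenia, 69 of the 95 partners, or 72.6%, changed by at least 2-fold at an adjusted p under 0.05 (limma), against 62.6% of all 75926 features tested. They were 28 higher and 41 lower in P. chienii, where 29.4% and 33.2% of all features were higher and lower. Between P. chienii and T. grandis 54 partners changed, or 56.8%, against 56.1% of all features, with 28 higher (29.9% of all features) and 26 lower (26.1%). A. argotaenia and T. grandis differed in 51 partners, or 53.7%, against 47.5% of all features, with 33 higher (27.5%) and 18 lower (20%) in A. argotaenia. Each pair of these comparisons shares the libraries of 1 species. Nothing more is read from these shares. Summed per library, the partners stood at 1112 ± 137 TPM for P. chienii (SD, n = 3), 976 ± 51.2 TPM for A. argotaenia and 1046 ± 55.5 TPM for T. grandis. A few abundant partners weigh heavily in the sum. TRINITY_DN47863_c1_g2 was at 418, 241 and 364 TPM in P. chienii replicates 1, 2 and 3. TRINITY_DN47663_c0_g3 had a mean of 385 TPM for T. grandis. An exact permutation test of the species labels on log2 of this sum, two-sided, gave p = 0.25, where the smallest p it allows is 0.00357. Without P. chienii replicate 2, the lowest library of its species at 957 TPM, the exact permutation p was 0.0179. It was 0.989 after trimmed-mean scaling, 0.361 after quantile normalization and 0.867 without the 3 libraries that correlated least with their species.

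Whether a feature is steady also depends on how libraries are scaled. Trimmed-mean scaling divided the libraries by factors of between -0.15 and 0.13 on the log2 scale. It left 78 features steady, of which 45 were among the 73. Quantile normalization left 82, of which 55 were among the 73. The 45 were steady under all 3 scales. They comprised 28 of 43 in the lowest level class, 12 of 20 in the next, 3 of 8 in the class from 100 TPM and both in the highest class. All features named for the smallest ratio of their level class stayed under 1.5 in both scalings. TRINITY_DN49362_c0_g1 had ratios of 1.15 and 1.203, TRINITY_DN49774_c0_g1 1.15 and 1.18, and TRINITY_DN50099_c0_g1 1.24 and 1.16 after trimmed-mean scaling and quantile normalization. Others of them widened more. The ratio of TRINITY_DN44978_c0_g1 went from 1.17 as deposited to 1.38 and 1.33 in the same order of scalings. TRINITY_DN43613_c1_g1 went from 1.19 to 1.35 and 1.26, and TRINITY_DN47001_c0_g1 from 1.23 to 1.43 and 1.35. TRINITY_DN43052_c0_g2, the most abundant, had ratios of 1.42 and 1.43. TRINITY_DN43455_c0_g1 exceeded the limit under both, with 1.54 and 1.51, as did TRINITY_DN41197_c0_g1 with 1.74 under each.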

How the data were processed

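RNA-seq libraries of P. chienii, A. argotaenia and T. grandis twigs were analysed, 3 per species, grouped by sample title. Trizol was used to extract total RNA, per the labels. The deposited values, 1 table per library, are taken as TPM. No header names the unit, which was read from the common total and the lack of a common step in low values; CPM of estimated counts could look alike. The sources used here do not name the quantifier, the filters or the input of the assembly. The members and lists were chosen with earlier results of these data known.

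Spread was computed on log2 TPM without a pseudocount, since the steady features are at 20 TPM or more. Partners were tested with limma 3.58.1 (R 4.3.3), using log2(TPM + 1) and a trend with intensity, on the 75926 features at 1 TPM or more in at least 3 libraries, in 1 fit with species as the only term, two-sided, with Benjamini-Hochberg adjustment. The step was tested on simulated data. Fold changes on this scale understate the change of low features. Trimmed-mean scaling used features that reached 1 TPM in every library, with 30% trimmed on each side. Python 3.11.15, pandas 2.3.3, numpy 2.4.6 and matplotlib 3.10.9 gave the other values and the figures.

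Features were named by rule: the 3 smallest ratios in each level class, the 3 highest means, the 2 on each side of the ratio limit, the 2 nearest the level limit, the 3 largest and smallest shares between species, the 3 lowest M and the 3 highest partner sums. The features just below the level limit and the second steady feature of a shared component, 3 members that complete a level class and single partners were added after values were seen.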

Additional observations from a re-analysis of the deposited data

How the results depend on the processing

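The number of steady features, 73 as deposited, moved mainly with the limits: 120 at a minimum of 10 TPM, 20 at 50 TPM, 161 with any level above 0, 14 with a ratio under 1.3, 420 with a ratio under 2, and 113 with 5 TPM added to each value. It was 76 with 1 TPM added, 78 after trimmed-mean scaling, 82 after quantile normalization and 108 as component sums. Leaving out each library in turn gave 81 to 125, the highest without A. argotaenia replicate 2, and leaving out the 3 libraries that correlated least with their species, an alternative chosen after seeing the data, gave 191; fewer libraries let more features pass by construction.

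For the same 73, the median SD of species means, 0.104, was 0.129 after trimmed-mean scaling and 0.127 without those 3 libraries, where the within-species SD was 0.0853. The median share between species, 38.2%, was 48.5% after trimmed-mean scaling, 43.7% after quantile normalization, 37.8% to 51.03% without 1 library and 64.7% without the 3; fewer libraries per species raise the share by construction, and the cause under the scalings was not tested. Leaving out 1 library gave a within-species SD of 0.105 to 0.123 and an SD of species means of 0.103 to 0.117. Changed partners, 69, 54 and 51, numbered 34, 30 and 18 with a pseudocount of 5, and 67 to 69, 54 to 55 and 51 to 52 without 1 library. The partner sum had an exact permutation p of 0.0179 to 0.482 without 1 library, 0.989 after trimmed-mean scaling, 0.361 after quantile normalization and 0.867 without the 3.

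With the replicate number as a block, 69, 54 and 51 partners changed, as without the replicate block. Deviations of same-numbered libraries correlated at -0.293 to 0.188, above 0.1 in 3 of 9 pairs, so no pairing by number was seen. The library of another species that correlated best carried the same number in 4 of 18 cases. The highest correlations were among the 3 libraries that correlated least with their species. P. chienii replicate 1 correlated at 0.298 with A. argotaenia replicate 2 and at 0.398 with T. grandis replicate 3, and the latter 2 at 0.328. With all other libraries of another species these 3 correlated negatively, at -0.324 to -0.159. Deviations taken within a species cancel over its libraries. A high correlation with 1 of them therefore brings negative ones with the others in part by construction. The cause of this shared pattern was not tested. Means of the 26 named features moved by less than 1 SD under both scalings and without each library in turn, the alternatives run for them. Such means move little by construction, as 1 of 9 libraries weighs little in a mean and the trimmed-mean factors are centred. They do not measure the ratio of highest to lowest library, which did change with the scaling. Without read counts, the precision of single values is unknown.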
